A study of Homo sapiens with 6 samples.

Results

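FGF5 and the EGF-family ligands are secreted or membrane-shed growth factors that act on receptor tyrosine kinases, and their RNA was followed here in breast cancer cells with and without short hairpin RNAs (shRNAs) against the long noncoding RNA LincIN. The ligands considered were FGF5 and FGF2 of the fibroblast growth factor family and AREG, EREG, HBEGF, TGFA and NRG1 of the EGF family. FGF5 was chosen on its low signal with both shRNAs, and the others were selected from the ligands of these receptors with earlier results of the same arrays known, so the values of all of them are given as a description, with no test. Of the 7 ligands, 5 had a probe set with a gene name in the probe annotation, out of 14884 named genes and 16098 named probe sets among the 53617 on the array. AREG and TGFA were not listed in that annotation and were not analysed here. No filter on low values was applied.

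FGF5 and FGF2 bind the receptors FGFR1 to FGFR4 together with heparan sulfate on the cell surface, and FGF5 is best known as the signal that ends hair growth. The EGF-family ligands are made as membrane-bound precursors, released by proteases such as ADAM17, and bind EGFR, ERBB3 or ERBB4. Activated receptors of both families switch on the RAS, RAF and ERK kinases, and ERK in turn induces phosphatases and other inhibitors that dampen the signal. Basal-like breast cancer cells, including MDA-MB-231, are known to express EGFR and several of its ligands.

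The study's account of the arrays names the cells MDA-MB-231, a breast cancer line that lacks the estrogen and progesterone receptors and HER2. Its methods describe stable lines made in MDA-MB-231-Luc-D3H1, a derivative that carries luciferase. Stable lines carried the empty pMKO.1-GFP vector (vector), shRNA1 (labelled sh681) or shRNA2 (labelled shSiA), and the labels name no further treatment. Each group had 2 arrays of 250 ng total RNA, 6 Human Gene 2.0 ST arrays in all, and the series states that the RNA was collected in 2 independent experiments. Whether a stable line was a clone or a pool is not given in the sources used here, the control carried no scrambled hairpin, and both shRNA groups are set against the same 2 vector arrays.

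The values are log2 signals after robust multi-array averaging (RMA), which corrects the background, normalizes arrays by quantiles and summarises each probe set. The array medians ran from 6.12 to 6.30, and with no detection call a value near them could not be told from background. LincIN had no named probe set, so the knockdown and the array labels could not be checked on these arrays. Directions below follow those labels, and they are opposite to the directions that the study's supplementary gene lists give. The mesenchymal markers of this cell line (5 of 7 measured) lay between 10.32 and 13.14 on every array, and 0 of the 5 passed the test with either shRNA. Of the luminal markers 8 of 9 were measured and spanned 4.65 to 11.65, and 0 passed. The hormone receptor genes ESR1 (5.71 to 6.17) and PGR (4.65 to 4.93) were low among them, while KRT18 lay between 11.23 and 11.65, KRT19 between 9.38 and 10.33, GATA3 between 7.78 and 9.02 and EPCAM between 7.46 and 9.02. Of the endothelial markers 3 of 5 were measured, and KDR alone passed the test: it fell by 1.52 on the log2 scale for shRNA1 and fell by 1.54 for shRNA2 (limma adjusted p = 0.0125 and 0.0123). The log2 signals of these 3 genes summed to 18.37 and 19.16 on the vector arrays, 16.95 to 17.83 with shRNA1 and 16.71 to 17.28 with shRNA2, while PECAM1 and VWF lay between 5.12 and 5.88 on all arrays. The KDR calls ended in 3 of the 6 fits without 1 array for either shRNA (adjusted p up to 0.0743 and 0.151), and the part of such cells in the results was not tested. In RNA from a whole culture, fewer cells that express a gene and less RNA per cell cannot be told apart.

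FGF5 had the widest span between groups of the 5 measured ligands. Its log2 signal was 10.39 and 9.54 on the vector arrays, 6.49 and 6.50 with shRNA1, and 6.80 and 7.13 with shRNA2. All 4 shRNA arrays lay below both vector arrays, by at least 3.04 with shRNA1 and 2.41 with shRNA2, so the groups did not overlap. Group means were 9.97 ± 0.60 for vector, 6.50 ± 0.0064 for shRNA1 and 6.97 ± 0.23 for shRNA2 (SD, n = 2 each). The log2 difference from vector was -3.47 for shRNA1 and -3.00 for shRNA2 (standard error 0.28 for both, from the joint limma fit), which is an 11.1-fold and a 7.99-fold lower signal. Both shRNA2 arrays lay above both shRNA1 arrays, and the means differed by 0.47 (standard error 0.28). The shRNA1 values sit just above the array medians, where no detection call separates signal from background. Leaving out one or the other vector array moved the difference between -3.89 and -3.04 for shRNA1 and between -3.42 and -2.57 for shRNA2.

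EREG encodes epiregulin, a ligand of EGFR and ERBB4. The vector arrays gave it log2 signals of 10.47 and 9.83, the shRNA1 arrays 9.24 and 8.36, and the shRNA2 arrays 8.76 and 8.58. Every shRNA array was lower than both vector arrays, while the shRNA1 and shRNA2 arrays overlapped. Mean signals were 10.15 ± 0.45, 8.80 ± 0.62 and 8.67 ± 0.13 in the same order (SD, n = 2 each). EREG thus stood at a log2 difference of -1.35 for shRNA1 and -1.48 for shRNA2 (standard error 0.32), or 2.55-fold and 2.79-fold below vector. The shRNA1 difference was -0.91 without shRNA1 replicate 2 and -1.79 without shRNA1 replicate 1.

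HBEGF encodes heparin-binding EGF-like growth factor, another ligand of EGFR and ERBB4. Its signal was 10.18 and 9.99 on the vector arrays, 9.76 and 9.15 with shRNA1, and 9.74 and 9.62 with shRNA2. The 4 shRNA arrays again lay below both vector arrays, here by a gap of only 0.23 and 0.26, and the shRNAs overlapped each other. Against vector the log2 difference was -0.63 for shRNA1 and -0.41 for shRNA2 (standard error 0.22), that is 1.55-fold and 1.33-fold lower. Without shRNA1 replicate 2 the shRNA1 value was -0.33, and without shRNA1 replicate 1 it was -0.93.

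NRG1 encodes neuregulin 1, which binds ERBB3 and ERBB4. It had log2 signals of 9.32 and 9.10 in vector cells, 9.49 and 9.28 with shRNA1, and 8.49 and 8.40 with shRNA2. The shRNA1 arrays overlapped with vector, and the shRNA2 arrays lay below both other groups. The difference from vector was 0.17 for shRNA1 and -0.76 for shRNA2 (standard error 0.16). The first was about its standard error and ran from 0.06 to 0.28 with 1 array left out, and the second ran from -0.87 to -0.65. Set directly against each other, shRNA2 was 0.94 lower than shRNA1 on the log2 scale.

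FGF2, basic fibroblast growth factor, gave 5.25 and 5.41 on the vector arrays, 5.72 and 5.65 with shRNA1, and 5.17 and 5.61 with shRNA2. All of these values lie below the array medians. The shRNA1 arrays were above both vector arrays and the shRNA2 arrays overlapped with them, with log2 differences of 0.35 and 0.06 (standard error 0.19). The shRNA2 value ran from -0.16 to 0.28 when 1 array was left out in turn, and had no settled sign. In all, both arrays lay below both vector arrays for 3 of the 5 ligands with shRNA1 (FGF5, EREG and HBEGF) and for 4 of 5 with shRNA2 (also NRG1). Over all 16098 named probe sets this held for 15% with shRNA1 and 30.6% with shRNA2, and since the ligands were chosen with such values known, nothing is read from these counts.

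**Figure D1:**
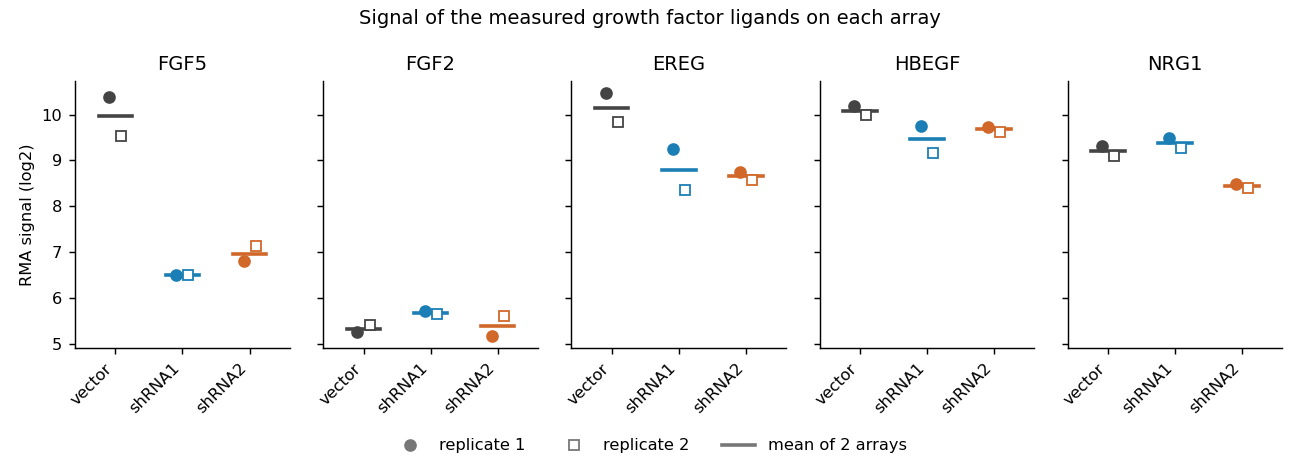
Log2 RMA signal of the 5 measured ligands on each of the 6 arrays (vertical axis, the same scale in every panel), with filled circles for replicate 1, open squares for replicate 2 and bars for the mean of the 2 arrays. FGF5, EREG and HBEGF lie below both vector arrays with each shRNA, NRG1 only with shRNA2, and FGF2 stays between 5.17 and 5.72.

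The sequences just upstream of FGF5, EREG and HBEGF are shown because these are the ligands that lay lower with both shRNAs. Each is the 250 bases before a gene start in RefSeq (build GRCh38.p14), 5′ to 3′ on the strand of the gene, with 2 starts listed for FGF5 and with capitals for matches to the motifs named after them.
FGF5 start 1, chr4:80266338-80266587, plus strand: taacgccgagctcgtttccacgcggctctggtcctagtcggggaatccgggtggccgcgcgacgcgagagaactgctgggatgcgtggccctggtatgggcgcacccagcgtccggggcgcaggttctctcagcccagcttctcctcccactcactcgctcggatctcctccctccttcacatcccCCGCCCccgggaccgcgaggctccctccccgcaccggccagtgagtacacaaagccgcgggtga
FGF5 start 2, chr4:80268018-80268267, plus strand: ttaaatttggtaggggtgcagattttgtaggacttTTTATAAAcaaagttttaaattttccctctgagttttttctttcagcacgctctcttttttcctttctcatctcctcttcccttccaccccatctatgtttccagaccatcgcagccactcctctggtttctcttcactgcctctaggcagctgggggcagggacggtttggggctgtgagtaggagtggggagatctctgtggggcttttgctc
EREG, chr4:74364895-74365144, plus strand: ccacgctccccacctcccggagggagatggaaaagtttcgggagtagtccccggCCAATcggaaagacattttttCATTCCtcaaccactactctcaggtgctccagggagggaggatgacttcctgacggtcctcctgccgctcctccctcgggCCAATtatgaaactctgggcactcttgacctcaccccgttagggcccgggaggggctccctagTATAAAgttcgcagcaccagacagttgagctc
HBEGF, chr5:140346604-140346853, minus strand: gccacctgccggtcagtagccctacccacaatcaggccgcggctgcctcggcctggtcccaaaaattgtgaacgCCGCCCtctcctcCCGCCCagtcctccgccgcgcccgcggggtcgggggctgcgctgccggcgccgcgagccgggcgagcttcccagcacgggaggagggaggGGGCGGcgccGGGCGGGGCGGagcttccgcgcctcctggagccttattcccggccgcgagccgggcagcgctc

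These windows were searched on both strands for the letters of 8 common promoter motifs, and for each the share of 35116 RefSeq promoters of the same length that hold it was counted. The GC box, bound by SP1 and its relatives, was searched as GGGCGG and is in 42.6% of those promoters. FGF5 start 1 is 68.8% G and C and holds 1 GC box, 64 bases before the start. HBEGF is 76.4% G and C and holds 5 GC box matches between 58 and 176 bases before its start, of which the nearest 2 share a base. The TATA box, which positions the start of transcription, was searched as TATAAA and is in 10.7% of promoters. EREG holds one 32 bases before its start. FGF5 start 2 is 47.2% G and C, and its capitals are a TATA box read on both strands that overlap, 213 and 215 bases before the start. The CCAAT box, the site of NF-Y and searched by the letters of its name, is in 32% of promoters, and EREG holds it 95 and 196 bases before its start. The site of the TEAD factors, searched as GGAATG, is in 11.9%, and EREG has a match 175 bases before its start. No motif was in the windows of all 3 genes. The letters of the other motifs were in none of the 4 windows. Those were the ETS site, searched as CCGGAA and in 14.5% of promoters, the AP-1 site, searched as TGANTCA and in 6.57%, and the E-box, searched as CACGTG and in 6.34%. The last was the cAMP response element, searched as TGACGTCA and in 1.65%. A match is a description of the letters and not a bound site.

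The genes whose pattern was most like that of each ligand were found by Pearson's r over the 6 arrays, among named probe sets whose group means spanned at least 1 on the log2 scale. The 6 points share their 3 groups, so r is given as a description. For FGF5 they were LPXN (leupaxin, a focal adhesion adaptor, r = 0.998), the long noncoding RNA LINC00261 (0.996), LOC283299 (0.995), the zinc finger gene ZNF704 (0.994) and TLR4, the receptor for lipopolysaccharide (0.994). On the shRNA arrays LINC00261 and LOC283299 lay below the array medians, where background could not be told apart. LPXN had log2 signals of 10.19 and 9.61 in vector cells, 7.95 and 7.87 with shRNA1, and 8.18 and 8.23 with shRNA2. It thus had the 3 features of FGF5, namely a higher vector replicate 1, the lowest values with shRNA1 and slightly higher ones with shRNA2. This pattern was a common one, since 94 of the 646 probe sets compared with FGF5 had r over 0.95.

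For EREG, KLHL5, a kelch-like gene, had r = 0.990, and 26 of 646 probe sets had r over 0.95. KLHL5 had 10.17 and 9.88 in vector cells, 9.48 and 8.81 with shRNA1, and 8.96 and 8.98 with shRNA2, below vector on every shRNA array, as EREG was. HBEGF was most like MGC12916 (0.967) and the tight junction gene CLDN7 (0.960), with 4 of 647 over 0.95. NRG1 was most like the kinase gene RSKR (0.994) and the microRNA gene MIR1207 (0.991), with 23 of 647. RSKR had 8.15 and 7.87 in vector cells, 8.22 and 8.09 with shRNA1, and 6.95 and 6.92 with shRNA2, lower with shRNA2 alone. FGF2 had no close match, with MIR1253 (0.804) and MIR4307 (0.791) the nearest. MIR1207, MIR1253 and MIR4307 lay below the array medians on all arrays, where background could not be told apart.

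FGF5 and EREG both lie on chromosome 4, and AREG is the protein-coding gene after EREG in the RefSeq gene order of GRCh38.p14. Of the 10 protein-coding genes on each side of FGF5, 14 of 20 had a named probe set. This window was drawn after the values of a shorter list of neighbours had been seen. In it 2 genes fell with shRNA1 and 1 with shRNA2, and 0 rose (limma, Benjamini-Hochberg over all named probe sets, adjusted p under 0.05). Over all named probe sets, 1.37% fell and 0.497% rose with shRNA1, and 1.5% fell and 1.07% rose with shRNA2. At a limma unadjusted p under 0.05, 5 and 4 of the 14 differed, beside 12.1% and 18.6% of all named probe sets. PRDM8, a transcriptional regulator directly before FGF5, had log2 signals of 8.83 and 8.17 in vector cells, 6.72 and 7.07 with shRNA1, and 7.93 and 7.73 with shRNA2. Both shRNA groups lay below vector, and PRDM8 fell by 1.60 with shRNA1 (limma adjusted p = 0.0263) and was at -0.66 with shRNA2 (adjusted p = 0.214). FRAS1, an extracellular matrix gene 8 places before FGF5, had 8.51 and 8.09, then 6.85 and 6.59, then 7.16 and 6.95 in the same order. It fell by 1.58 for shRNA1 and by 1.25 for shRNA2 (adjusted p = 0.0113 and 0.0267). CFAP299, directly after FGF5, was at -0.81 and -0.74 and did not pass (limma adjusted p = 0.194 and 0.152), and BMP3, next in order, was at -0.17 and -0.32. CFAP299 lay below the array medians on all arrays, where background could not be told apart. The other measured neighbours ran from -0.64 to 0.41 with shRNA1 and from -0.52 to 0.36 with shRNA2, and the medians of the 14 were -0.31 and -0.28.

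The PRDM8 call ended in 5 of the 6 fits without 1 array (adjusted p up to 0.128), all but the one without vector replicate 2. For FRAS1, leaving out vector replicate 1, or shRNA1 replicate 2, or one of the shRNA2 arrays ended the call of shRNA1 (adjusted p up to 0.0725). Leaving out vector replicate 1 or one of the shRNA2 arrays ended that of shRNA2 (up to 0.275). Both FRAS1 calls also ended when all probe sets were tested (0.0601 and 0.0772), and that of shRNA1 in a fit of only the 4 arrays compared (0.0513). In every fit without 1 array, also that of KDR, a group is left with 1 array and is taken to vary like the others. For 1 shRNA against vector, a fit without an array of the other shRNA equals the fit of only the 4 arrays compared. All tallies out of 6 such fits, here and below, therefore count that fit more than once.

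Around EREG, 15 of 20 neighbours were measured and 0 passed the test with either shRNA in limma (1 and 3 at an unadjusted p under 0.05), beside the shares of all named probe sets given above. Their medians were 0.08 and -0.02. In the fit blocked on replicate number, PARM1, PPBP and CDKL2 passed with shRNA2, at -0.72, 0.90 and 0.92 (adjusted p = 0.0297, 0.0225 and 0.0413). All PPBP values (4.06 to 5.38) and the shRNA2 values of PARM1 (5.60 and 5.74) lay below the array medians. Background could not be told apart there. EPGN (epigen), directly before EREG, was at -0.14 and 0.15, and BTC (betacellulin), just beyond AREG, at 0.34 and 0.27. EPGN values of 4.49 to 5.11 and BTC values of 5.47 to 6.14 lay below the array medians on all arrays, where a fall could not have been seen. CXCL8, the gene of interleukin 8 in the chemokine cluster beyond this window, had log2 signals of 7.59 and 7.62 in vector cells, 5.67 and 5.73 with shRNA1, and 6.53 and 6.23 with shRNA2. All shRNA arrays were below vector, and CXCL8 fell by 1.90 and 1.23 (standard error 0.16, limma adjusted p = 0.00328 and 0.0133). Its shRNA1 values lay below the array medians, where background could not be told apart. The shRNA2 call ended without either vector array or either shRNA2 array (up to 0.185). Of the 13 measured genes in the list of AREG and EREG neighbours, CXCL8 was the 1 that passed with each shRNA.

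**Figure D2:**
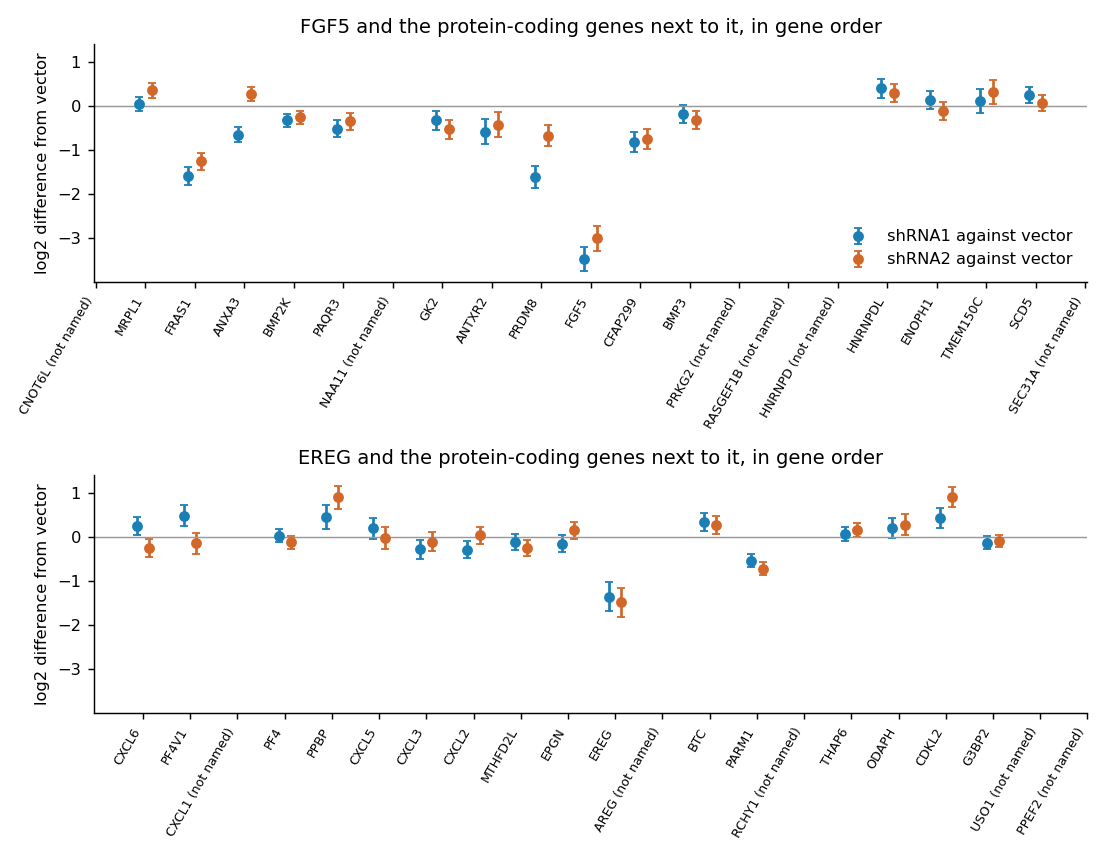
Log2 difference from vector (vertical axis) with its standard error for shRNA1 and shRNA2, for FGF5 and EREG and the 10 protein-coding genes on either side of each in RefSeq order (horizontal axis). Genes with no named probe set are left blank. PRDM8 and FRAS1 lie low near FGF5, and the measured genes around EREG lie between -0.72 and 0.92.

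Other genes came from 8 lists of receptors, shedding proteases, carriers, other ligands and ERK outputs, and from 2 lists of chromosome neighbours of FGF5 and of AREG and EREG. These 10 lists hold 167 genes, of which 147 were measured. They were chosen with earlier results of the same arrays known, so their counts here and below are given as a description. With shRNA1, 5 fell and 2 rose, and with shRNA2, 2 fell and 3 rose by the same test. Of all named probe sets, 1.37% fell and 0.497% rose with shRNA1, and 1.5% fell and 1.07% rose with shRNA2. The falls include the neighbours PRDM8 (shRNA1) and CXCL8 (both shRNAs), which were listed by position. The median log2 difference of the 147 genes was -0.01 with shRNA1 and -0.14 with shRNA2, beside 0.05 and -0.04 over all named probe sets. Between shRNA2 and shRNA1 directly, 0 of the 147 passed in limma, against 0.00621% of all named probe sets. At an unadjusted p under 0.05, 37 and 40 of the 147 differed from vector and 26 differed between the shRNAs, where 12.1%, 18.6% and 15.6% of all named probe sets did. In the fit blocked on replicate number, 11 and 19 genes passed against vector and 3 between the shRNAs, where 3.32%, 7.33% and 2.3% of all named probe sets did. All 5 calls with shRNA2 ended without either shRNA2 array.

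**Figure D3:**
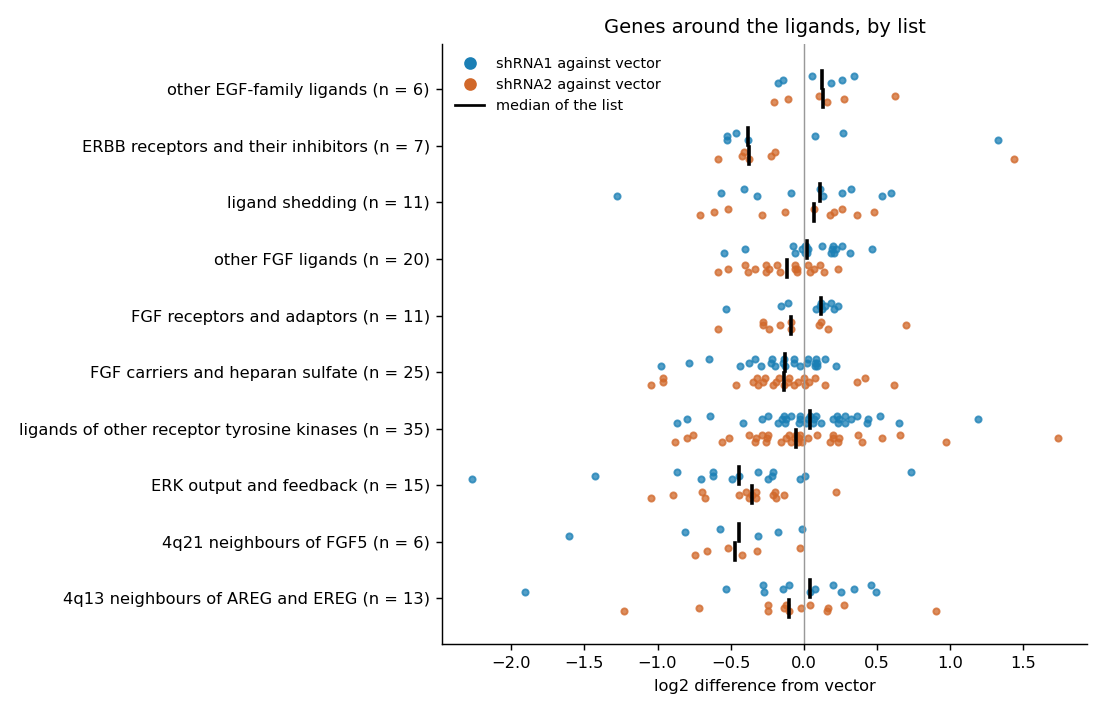
Log2 difference from vector (horizontal axis) of each measured gene in the 10 lists (rows), with 1 point per gene for shRNA1 and for shRNA2 and a black bar for the median of the list. Most genes lie within 1 of 0, and the genes farther out include DUSP5, DUSP6, CXCL8, PRDM8 and ADAM17 below it and LRIG1, KITLG and ANGPT1 above it.

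The other listed ligands of the EGF and FGF families were tested, unlike those described above, and none passed. Of 6 other EGF-family ligands, 0 passed with either shRNA in limma (0 and 1 at an unadjusted p under 0.05), with log2 differences from -0.18 to 0.34 and from -0.21 to 0.62. The 2 with the highest signal were NRG2, at 6.53 to 6.89 over the 6 arrays, and EGF, at 6.23 to 6.93. Of 20 other fibroblast growth factors 0 passed as well (3 and 3 at an unadjusted p under 0.05), with differences that ran from -0.54 to 0.47 and from -0.59 to 0.24. Here the highest were FGF18 at 7.03 to 7.24 and FGF19, an endocrine factor, at 6.22 to 7.09. These unadjusted counts, and those of the lists below, are to be read beside the 12.1% and 18.6% of all named probe sets. The signals lay near the array medians, where background could not be told apart.

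Among the receptors, EGFR had log2 signals of 11.63 and 11.08 in vector cells, 11.72 and 11.14 with shRNA1, and 11.03 and 10.93 with shRNA2. The shRNA1 arrays overlapped with vector and both shRNA2 arrays lay slightly below it, with differences of 0.08 and -0.37 (adjusted p = 0.948 and 0.497). Without the replicate block, the EGFR difference with shRNA1 ran from -0.21 to 0.36 when 1 array was left out. Within replicates of the same number, shRNA1 lay above vector both times (11.72 against 11.63, and 11.14 against 11.08). ERBB3, a receptor for NRG1, was at 6.74 and 6.47 in vector cells, 6.06 and 6.10 with shRNA1, and 5.93 and 6.10 with shRNA2, a difference of -0.53 and -0.59 that did not pass (adjusted p = 0.226 and 0.114). Every shRNA value of ERBB3, and every value of ERBB4, lay below its array median, where background could not be told apart. ERBB4 lay between 5.39 and 6.23 on all arrays, and ERBB2 was not listed in the annotation.

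Of 7 measured ERBB receptors and inhibitors, LRIG1 alone passed (4 and 2 at a limma unadjusted p under 0.05). It encodes a transmembrane protein that holds back EGFR and its relatives by promoting their degradation. LRIG1 had log2 signals of 8.14 and 7.98 in vector cells, 9.42 and 9.35 with shRNA1, and 9.43 and 9.56 with shRNA2. All 4 shRNA arrays lay above both vector arrays, and it rose by 1.33 and 1.44 (standard error 0.15, adjusted p = 0.00773 and 0.00641). Its relatives LRIG2 and LRIG3 were at -0.38 and -0.53 with shRNA1 and at -0.42 and -0.41 with shRNA2, and did not pass. The shRNA1 call held in all 6 fits without 1 array (adjusted p up to 0.048), and the shRNA2 call ended without either shRNA2 array (up to 0.128).

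Ligand shedding was represented by 11 measured genes of 12 (5 and 5 at a limma unadjusted p under 0.05). ADAM17, the protease that releases EREG, HBEGF and other EGF-family ligands, had log2 signals of 10.22 and 10.07 in vector cells, 8.87 and 8.86 with shRNA1, and 9.54 and 9.52 with shRNA2. The 3 groups did not overlap, with shRNA1 lowest and shRNA2 in between. ADAM17 fell by 1.28 with shRNA1 (standard error 0.15, adjusted p = 0.00787), and this call held in all 6 fits without 1 array. For shRNA2 it was at -0.61, where the adjusted p was 0.0797 (0.0469 with the replicate block), and the difference between the shRNAs of 0.67 did not pass (adjusted p = 0.133). The other 10 genes of the list did not pass with either shRNA, and ran from -0.56 to 0.59 and from -0.71 to 0.48. ADAM19, at -0.71 with shRNA2, passed with the replicate block (adjusted p = 0.0298). ADAM10, which sheds EGF and betacellulin in mouse cells, lay between 11.15 and 12.01 on all arrays.

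On the FGF side, 0 of 11 measured receptors and adaptors passed with either shRNA in limma (1 and 2 at an unadjusted p under 0.05). FGFR1 had log2 signals between 7.45 and 7.84 over the 6 arrays, FGFR2 between 5.60 and 6.04, FGFR3 between 6.22 and 6.54, and FGFR4 between 6.42 and 6.63. FRS3, an adaptor of the FGF receptors, lay between 7.38 and 7.60. With shRNA2, FGFRL1, a receptor relative without a kinase domain, was at 0.69 (adjusted p = 0.0527), and passed with the replicate block, with arrays centred, with quantile normalization, with an intensity trend, with probe sets above the median only and with 1 probe set per gene. FGFRL1 was named after its values had been seen. The array ranges of FGFR2, FGFR3 and FGFR4 include values near the array medians.

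Of 25 measured carriers of FGF and genes of heparan sulfate, the sugar chain that FGF needs to bind its receptors, 0 passed with either shRNA in limma (4 and 6 at an unadjusted p under 0.05). SDC4, a heparan sulfate proteoglycan of the cell surface, had log2 signals of 11.23 and 11.89 in vector cells, 11.16 and 11.51 with shRNA1, and 10.52 and 10.51 with shRNA2. The shRNA1 arrays overlapped with vector and the shRNA2 arrays lay below it, with differences of -0.23 (adjusted p = 0.809) and -1.04 (adjusted p = 0.075, or 0.0179 in the blocked fit). EXT1, which builds the chain, lay between 12.68 and 12.79 on every array. The medians of the list were -0.13 and -0.13. With the replicate block GPC6 passed with both shRNAs, at -0.97 and -0.96 (limma adjusted p = 0.0311 and 0.024). HS6ST3 passed with shRNA2, at -0.96 (0.0224), and its shRNA values lay below the array medians.

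Ligands of other receptor tyrosine kinases were measured for 35 of 40 genes (7 and 9 at a limma unadjusted p under 0.05). KITLG, stem cell factor, had log2 signals of 7.57 and 7.64 in vector cells, 8.73 and 8.86 with shRNA1, and 8.57 and 8.58 with shRNA2. Both shRNA groups lay above vector without overlap, and KITLG rose by 1.19 and 0.97 (standard error 0.14, adjusted p = 0.0101 and 0.0213). ANGPT1, the ligand of the receptor TIE2, had 6.0 and 6.01 in vector cells, 6.48 and 6.42 with shRNA1, and 7.95 and 7.54 with shRNA2. It rose by 1.74 with shRNA2 (limma adjusted p = 0.00596) and was at 0.44 with shRNA1 (adjusted p = 0.377). The vector values of ANGPT1 lay below the array medians, where background could not be told apart. The shRNA2 arrays of ANGPT1 lay above both shRNA1 arrays by 1.30 on average, a difference with an adjusted p of 0.0594 (0.0159 with the block). The KITLG call with shRNA1 ended in 5 of the 6 fits without 1 array (up to 0.0644), all but the one without shRNA1 replicate 1, and with shRNA2 it ended without either vector or either shRNA2 array (up to 0.247). The ANGPT1 call ended without either shRNA2 array (up to 0.1). The other 33 genes of the list did not pass with either shRNA, and the medians of the list were 0.04 and -0.05. With the replicate block PROS1 and EFNB1 passed with shRNA1, at -0.87 and -0.80 (limma adjusted p = 0.0205 and 0.0341). With shRNA2, PDGFD, VEGFC and FLT3LG passed at -0.76, -0.88 and -0.80, and ARTN at 0.66 (0.0249, 0.025, 0.0235 and 0.0434). In that fit FLT3LG also passed between the shRNAs, lower with shRNA2 (limma adjusted p = 0.04755).

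Among the outputs of ERK and its feedback inhibitors, 15 of 20 genes were measured (9 and 6 at a limma unadjusted p under 0.05). DUSP5, the phosphatase of ERK in the nucleus, had log2 signals of 9.79 and 9.85 in vector cells, 7.58 and 7.53 with shRNA1, and 8.71 and 8.86 with shRNA2. The groups did not overlap, and DUSP5 fell by 2.27 for shRNA1 and by 1.04 for shRNA2 (adjusted p = 0.00131 and 0.018). The difference of 1.23 between the shRNAs had an adjusted p of 0.0553 (0.014 with the block). DUSP6, the phosphatase of ERK in the cytoplasm, had 10.58 and 11.12, then 9.25 and 9.60, then 10.07 and 10.24 in the same order. It fell by 1.43 with shRNA1 (adjusted p = 0.0276) and was at -0.70 for shRNA2, where the adjusted p was 0.156 (0.0377 with the replicate block). The other 13 genes did not pass with either shRNA, and ran from -0.86 to 0.73 and from -0.90 to 0.22. The medians of the 15 genes were -0.44 and -0.35. With the replicate block FOSL1 passed with shRNA1, higher at 0.73 (limma adjusted p = 0.0438), and SPRY2 with shRNA2, lower at -0.68 (0.0349). The DUSP5 call with shRNA1 held in all 6 fits without 1 array, its call with shRNA2 ended without either vector or either shRNA2 array (up to 0.243), and the DUSP6 call ended in 5 of 6, all but the one without vector replicate 1 (up to 0.128).

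**Figure D4:**
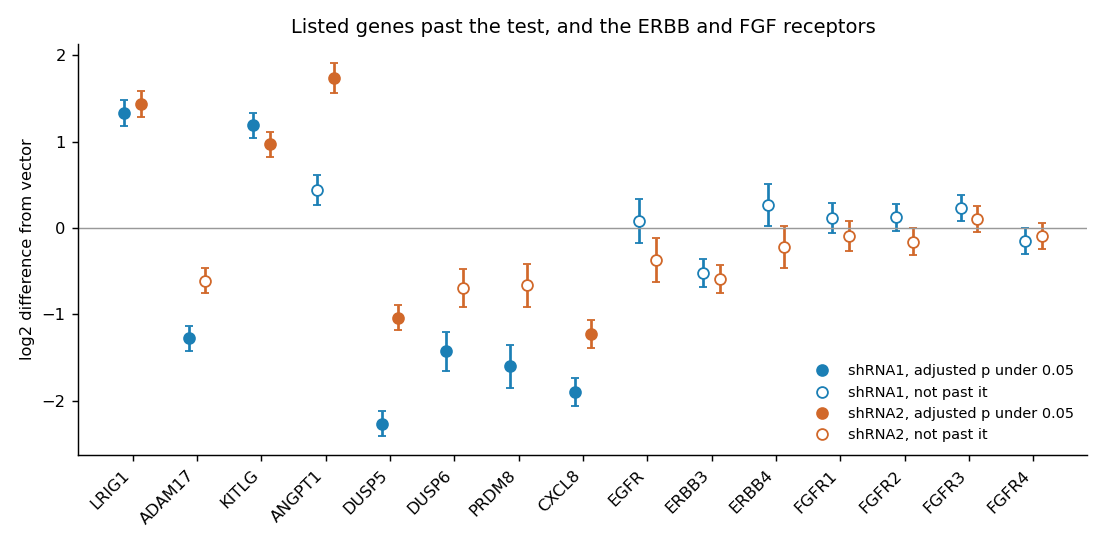
Log2 difference from vector (vertical axis) with its standard error for the 8 listed genes that passed the test with either shRNA (6 by function, and PRDM8 and CXCL8 by position) and for the measured ERBB and FGF receptors (horizontal axis). Filled points had an adjusted p under 0.05 in limma, open points did not, and none of the receptors passed with either shRNA.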

How the data were processed

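The deposited values are log2 signals per probe set, which the authors made with the Affymetrix Expression Console and RMA, per the labels and the methods. Versions and the genome build are not given in the sources used here. The probe annotation pairs 16098 of the 53617 probe sets with exactly 1 gene symbol, and only these were tested. One limma model (version 3.58.1, R 4.3.3, lmFit and eBayes) gave the means of the 3 groups from all 6 arrays, with Benjamini-Hochberg adjustment over the 16098 and a threshold of 0.05. This left 3 residual and 4.16 prior degrees of freedom. The 3 groups shared 1 estimate of the spread per probe set, though they did not vary alike. Over named probe sets, the replicates differed with an SD of 0.397 for vector, 0.395 for shRNA1 and 0.231 for shRNA2. Where a gene had several probe sets, the one with the highest mean signal was used. The script was tested on simulated data.

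The members and lists were chosen with earlier results of these data known. Genes named were every ligand measured, of each list every gene past the threshold or else the 2 with the highest mean, the ERBB and FGF receptors, and the genes most like each ligand. For EREG, the first gene that this rule names is not reported here. Genes that did not pass the unblocked test and were named for a pass with the replicate block were added after their values were seen. So were LRIG2, LRIG3, FGFRL1, ADAM10, FRAS1, CFAP299, BMP3, EPGN, BTC and KDR. Some of the former also passed in other fits. With shRNA1, EFNB1 passed with arrays centred and quantile normalization. PROS1 passed with the latter, with probe sets above the median only and with 1 probe set per gene. With shRNA2, GPC6 and HS6ST3 passed with an intensity trend and 1 probe set per gene. GPC6 and ADAM19 passed with probe sets above the median only.

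Replicate numbers were read as pairs, since the differences between replicates 2 and 1 correlated at 0.626 (vector and shRNA1), 0.145 (vector and shRNA2) and 0.150 (shRNA1 and shRNA2). The labels do not tie a number to an experiment, and the low values for shRNA2 are weak support for a pairing there. The fit with the replicate block (2 residual degrees of freedom) is an alternative.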

Additional observations from a re-analysis of the deposited data

How the results depend on the processing

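The log2 differences of FGF5 ran from -3.89 to -3.04 with shRNA1 and from -3.42 to -2.57 with shRNA2 over arrays centred on their medians, quantile normalization, the replicate block, which leaves the differences as they are, and 1 array left out in turn, those of EREG with shRNA1 from -1.79 to -0.91. The number of listed genes (pathway genes and chromosome neighbours) past the threshold with shRNA1, 7, was 11 with the replicate block, 4 when all probe sets were tested, 4 in a fit of only the 4 arrays compared, and 4 to 5 with 1 array left out. With shRNA2 it was 5, and 19 with the block, 8 with an intensity trend, 8 with probe sets above the median only, 8 with 1 probe set per gene, 3 with all probe sets, and 0 to 5 with 1 array left out. It was 0 without either shRNA2 array and 2 without either vector array. Between the shRNAs it was 0, and 3 with the block and 1 with 1 probe set per gene. The block ended none of the calls and, of the genes named, changed no call other than those given beside them. The calls of KITLG, DUSP6, PRDM8, FRAS1 and KDR with shRNA1 and of KITLG, DUSP5 and FRAS1 with shRNA2 ended when all probe sets were tested, and those of KITLG, DUSP6, PRDM8 and FRAS1 with shRNA1 in the fit of only the 4 arrays. Over all probe sets named, the numbers higher and lower were 80 and 221 with shRNA1 and 172 and 242 with shRNA2, against 71 and 280, and 208 and 240, with arrays centred, and 79 and 258, and 202 and 217, with quantile normalization. In unblocked fits, the values followed with 1 array left out were those of the ligands, the genes past the unblocked test, EGFR, ERBB3 and SDC4. Values changed sign among these for EGFR with shRNA1 (from -0.21 to 0.36) and SDC4 with shRNA1 (from -0.56 to 0.11). The ligand FGF2 did so with shRNA2 (from -0.16 to 0.28). Within replicates of the same number, shRNA1 lay above vector for EGFR and below it for SDC4 both times. The cause was not tested. With 2 arrays a group, and with no detection call, differences near the array medians have little precision.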

Other observations

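Some genes of these pathways had a further named probe set that gave another value. The second probe set of TIMP3, an inhibitor of ADAM17, had log2 signals of 5.88 and 6.75 in vector cells, 5.82 and 6.28 with shRNA1, and 7.48 and 7.25 with shRNA2, with differences of -0.26 and 1.06 (limma adjusted p = 0.833 and 0.122). The brighter TIMP3 probe set was at -0.41 and 0.20, so the 2 did not give the same value with shRNA2. The second probe set of DUSP5 was at -0.85 and -0.64 and did not pass (adjusted p = 0.485 and 0.469), where the brighter one fell with both shRNAs.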
